A study of Mus musculus with 7 samples.

Results

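Genes of the unfolded protein response and of protein degradation at the endoplasmic reticulum (ER) were compared between glycerol kinase knockout and wild type livers of newborn mice. The set had 34 genes, taken as every probe set that the platform annotation assigns to one of them alone. All 34 were represented, by 82 of the 45101 probe sets on the array, which name 18194 genes in all, and 1 further probe set, shared between Sec61b and another gene, was left out. Every liver came from a male C57BL/6J pup on day of life 1, 4 of them labelled as glycerol kinase knockouts and 3 as their wild type littermates. One Affymetrix Mouse Genome 430 2.0 array was hybridised per liver, so each array stood for 1 animal. The labels used here do not describe the knockout allele or say which pups shared a litter. Pups of this age are free of outward disease according to the submitters, so the comparison asks which liver transcripts differ ahead of overt glycerol kinase deficiency.

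Secreted and membrane proteins fold inside the ER, and hepatocytes, which make most plasma proteins, have a large one. When unfolded proteins accumulate, the membrane sensors Ern1 (IRE1), Eif2ak3 (PERK) and Atf6 signal to the nucleus: Ern1 splices the messenger RNA of the transcription factor Xbp1, Atf6 is cleaved into an active factor, and Eif2ak3 phosphorylates a translation initiation factor, which slows protein synthesis and favours translation of Atf4. The response raises chaperones, folding enzymes and the machinery of ER-associated degradation, in which misfolded proteins are recognised, pulled back through the membrane and handed to the proteasome. Arrays read transcript levels, and neither Xbp1 splicing, Atf6 cleavage nor phosphorylation was measured.

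Atf6 and Xbp1 act on many of these genes through the ER stress response element, abbreviated ERSE. RefSeq promoter windows of 300 bases, from 250 before to 50 after the annotated start (build GRCm38.p6), were found by symbol for 28 of the 34 genes. On either strand, the element, CCAAT and CCACG with 9 bases of any kind between them, occurred in the windows of 9 of the 28 genes (32.1%), against 39 of 32851 windows in the whole table (0.119%). Its sites are shown because chaperones and degradation genes share this sequence; the genes were chosen for their pathway, whose known targets carry it. Each site is written on the strand that carries the element, with its fixed letters in capitals.

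Hspa5: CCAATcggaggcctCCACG
Hsp90b1 (first site): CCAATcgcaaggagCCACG
Hsp90b1 (second site): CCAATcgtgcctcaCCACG
Calr: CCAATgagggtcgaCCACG
Canx: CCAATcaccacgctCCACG
Pdia6: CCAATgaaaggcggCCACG
Dnajc3: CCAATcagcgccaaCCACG
Creld2: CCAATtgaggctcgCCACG
Derl3: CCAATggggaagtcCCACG
Syvn1: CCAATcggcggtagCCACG

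The other form of the element, ATTGG and CCACG with 1 base between them, occurred in the windows of Herpud1 and Dnajb11, or 7.14% of the genes, against 0.0365% of all windows. The sites read ATTGGgCCACG in Herpud1 and ATTGGcCCACG in Dnajb11. The 8 letters TGACGTGG, a sequence bound by Xbp1, were found in the window of Vcp, or 3.57% of the genes, against 0.676% of all windows. CCACG is common to both forms of the element. Altogether 12 of 28 genes (42.9%) held at least 1 match, against 0.822% of all windows. A match is a description of letters and no evidence of binding in these livers.

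The 250 bases upstream of the start are printed for Hspa5, the classic target of the response, and for Sel1l and Ppp1r15a, which passed the test described below and held none of the 3 sequences. Capitals mark the fixed letters of the element, and none of the letters are in capitals where it was not found.
Hspa5, chr2:34771840-34772089, plus strand: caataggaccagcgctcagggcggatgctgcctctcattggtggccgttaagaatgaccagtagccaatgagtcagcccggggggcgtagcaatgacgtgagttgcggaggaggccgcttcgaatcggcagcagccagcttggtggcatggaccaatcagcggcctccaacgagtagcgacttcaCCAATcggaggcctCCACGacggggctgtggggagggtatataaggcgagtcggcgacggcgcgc
Sel1l, chr12:91849158-91849407, minus strand: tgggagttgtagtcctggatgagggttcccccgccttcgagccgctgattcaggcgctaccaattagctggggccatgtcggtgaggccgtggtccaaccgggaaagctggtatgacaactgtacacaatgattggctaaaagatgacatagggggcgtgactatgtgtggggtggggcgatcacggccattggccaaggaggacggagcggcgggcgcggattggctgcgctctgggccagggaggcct
Ppp1r15a, chr7:45526269-45526518, minus strand: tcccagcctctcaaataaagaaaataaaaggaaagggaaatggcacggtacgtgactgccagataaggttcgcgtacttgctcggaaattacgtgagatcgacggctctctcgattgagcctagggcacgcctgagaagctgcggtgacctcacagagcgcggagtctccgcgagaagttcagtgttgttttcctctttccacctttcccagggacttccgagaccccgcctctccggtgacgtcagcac
That these letters are not in the windows of Sel1l and Ppp1r15a says nothing about elements elsewhere.

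Values are the deposited linear intensities, compared on log2(intensity + 16), and a log2 fold change is the knockout mean minus the wild type mean on that scale. This scale shrinks the changes of dim probe sets. The ± after a fold change is limma's standard error and that after an intensity is the SD (n = 3 wild type, n = 4 knockout). Adjusted p-values come from limma with the Benjamini-Hochberg method over every tested probe set. Of the 82 probe sets 75 were bright enough to be tested, and each of the 34 genes had at least 1. In the 7 arrays the trimmed mean intensity was 500.003, and the number of arrays limits the precision. All 8 hepatocyte markers checked, Alb among them, were bright (mean intensity of the dimmest, Tat, 16398), and none passed limma's test (0 at an unadjusted p under 0.05). The sum over 6 erythroid markers was lower in every knockout, at 46936 to 52620 against 58827 to 65140 in wild type, with Slc4a1 and Rhag past the threshold. The level of Hba-a1, the dimmest of them, was near background (mean 47.2). The part of red cell precursors in the results below was not tested. In these bulk samples, fewer cells of a type and less RNA per cell cannot be told apart.

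Knockout 3 stood apart from the other arrays before any ER gene was considered. Of 4 measured markers of the exocrine pancreas, Ctrb1, encoding chymotrypsinogen, had an intensity of 3163 in knockout 3 and 5.1 to 12.3 in the 6 other arrays. Cpa1, a pancreatic carboxypeptidase, had 497.9 against 5.8 to 17.8, and the trypsinogen gene Prss2 had 316.3 against 21.7 to 78.5. Cela1, the fourth, did not separate it, at 1704 against 825.7 to 1907. A further 5 pancreatic genes, chosen after these values were seen, had their highest intensity in knockout 3, among them the carboxypeptidase gene Cpb1 at 391.4 against 2.3 to 5.5 and the insulin gene Ins2 at 616.1 against 18 to 75.6. The summed level of the 4 markers was 5681 in knockout 3, 888.1 to 1385 in the other knockouts and 1431 to 1959 in wild type. The same array had the highest 3' to 5' ratio of the transferrin receptor control, 11.1 against 7.22 to 8.24. Values are therefore also given without knockout 3 where it moved them by over 1.5 times, as it did for 19 of the 34 genes by brightest probe set, 15 of them toward 0 or past it. The part of pancreatic RNA in these values, and that of what raised the 3' to 5' ratios, was not tested.

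The 34 genes leaned higher in knockout, with few of them past the threshold. By its brightest tested probe set, which stands for each gene here, 26 of 34 genes (76.5%) were higher and 8 lower, against 49.9% higher of the 11159 genes tested. The median log2 fold change was 0.15, against -0.0013 over all genes. Under median scaling 27 were higher and under quantile normalization 26. Median scaling also moved the median over all tested probe sets, from -0.03 to 0.03. Of the 75 tested probe sets 5 passed (6.67%), 4 higher and 1 lower, against 4.24% of all 22518 probe sets (2.35% higher and 1.89% lower). By brightest probe set 2 of the 34 genes passed, against 4.76% of all genes. The 4 all belonged to Sel1l and the 1 was that of Ppp1r15a. In all, 955 probe sets passed, 55.4% of them higher in knockout. Under median scaling 728 passed, 73.6% of them higher. At an unadjusted p of 0.05 there were 11 member probe sets (14.7%), 9 of them higher, against 21.7% of all, with 9.97% higher. The groups did not overlap in 12 (16%), 10 of them higher, against 21.1% of all, with 9.4% higher. Both directions together were thus under the background at these looser thresholds. The higher direction alone was a little above it (12% and 13.3% of the 75) and the lower direction under it (2.67% in both, against 11.8% of all). The 4 Sel1l probe sets enter both counts of the higher direction, so 1 gene counts several times there. By brightest probe set, 4 of 34 genes were higher and 1 lower at an unadjusted p under 0.05, against 22.5% of all genes in either direction. Without knockout 3 the same 5 probe sets passed, against 4.13% of all, 25 of 34 genes were higher against 51.5% of all genes, and the median was 0.11.

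**Figure D1:**
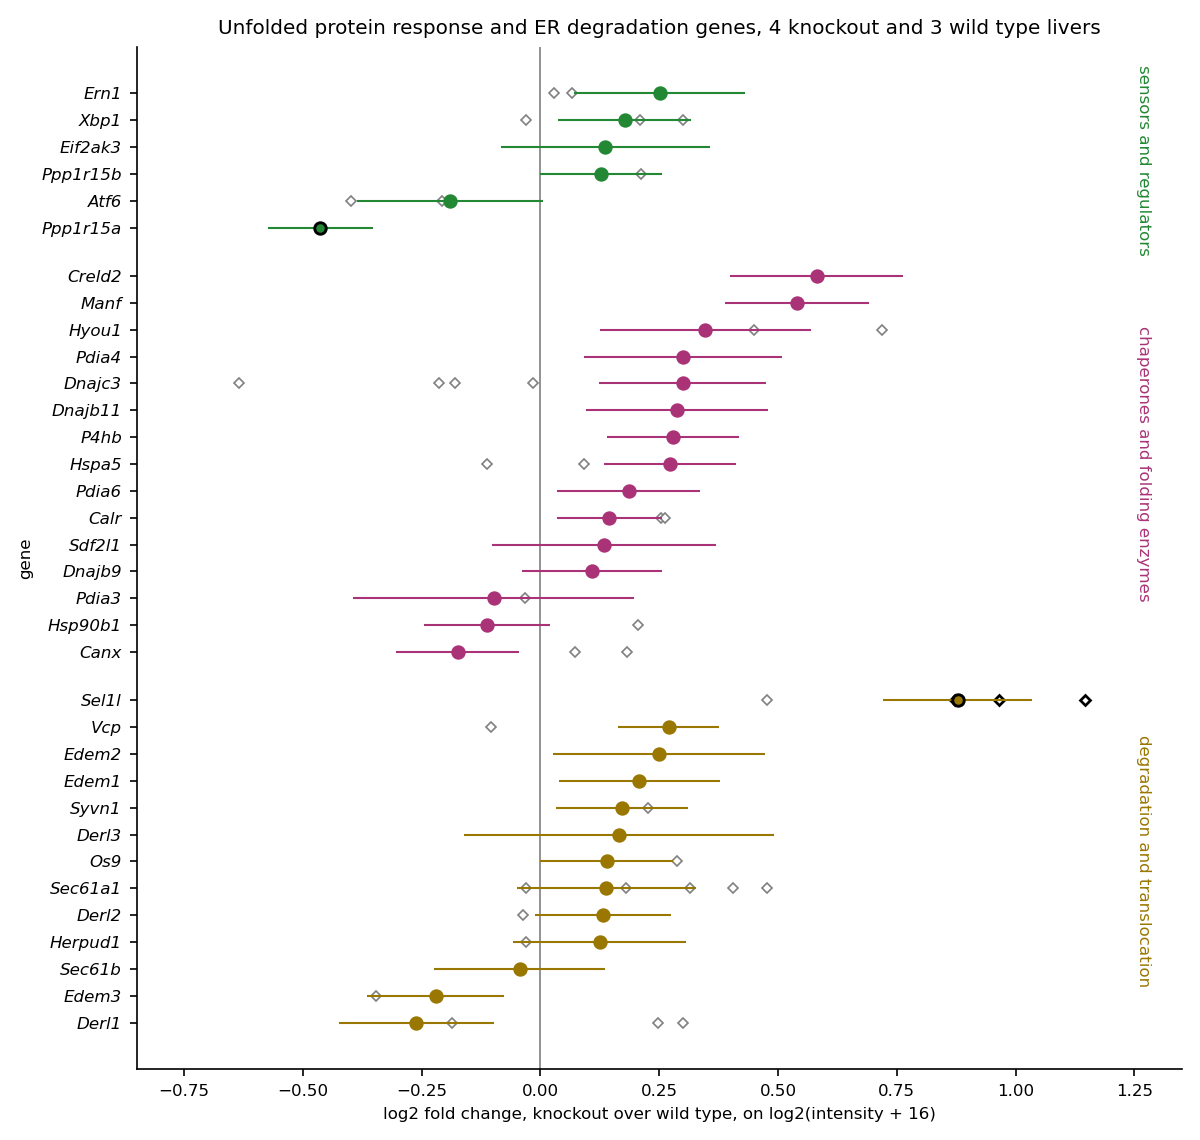
Log2 fold change (x axis, on log2(intensity + 16)) of each gene (y axis, italic), grouped by role, 4 knockout against 3 wild type livers. Filled circles with a bar are the brightest probe set and its standard error, diamonds the other tested probe sets, and black outlines mark an adjusted p under 0.05; Sel1l at 0.88 and Ppp1r15a at -0.46 are the genes past it.

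By role, chaperones and folding enzymes had the highest median, 0.27, with 12 of 15 genes higher. Degradation and translocation genes had a median of 0.14 with 10 of 13 higher, and sensors and regulators one of 0.13 with 4 of 6 higher. Without knockout 3 these medians were 0.13, 0.06 and 0.06, and 12, 9 and 4 genes were higher. Without wild type 3, the lowest array for 11 of the 34 genes (32.4%, against 11.9% of all genes), the medians were 0.19, 0.13 and 0.13. Knockout 3 was the highest of the 7 arrays for 21 of 34 genes (61.8%), against 18.5% of all genes. It was highest for 12 of 15 chaperones and folding enzymes, 7 of 13 degradation and translocation genes and 2 of 6 sensors and regulators.

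Each array was also described by the median, over the genes of a role, of the log2 level centred on the gene's own mean. For chaperones and folding enzymes it was 0.37 in knockout 3 and 0.05, -0.07 and 0.06 in knockouts 1, 2 and 4. The wild type values were -0.03, -0.04 and -0.32 in arrays 1, 2 and 3. By this median, knockouts 1, 2 and 4 thus lay near wild type 1 and 2, with knockout 3 above and wild type 3 below. No fit left out both of these arrays, so their joint part in the difference between groups was not tested. For degradation and translocation genes knockout 3 was at 0.24, the other knockouts between -0.09 and 0.03 and the wild types between -0.06 and 0.03. For sensors and regulators knockout 3 was at 0.20 and the wild types ran from -0.18 to 0.10. Over all genes the 7 medians lay between -0.04 and 0.03.

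**Figure D2:**
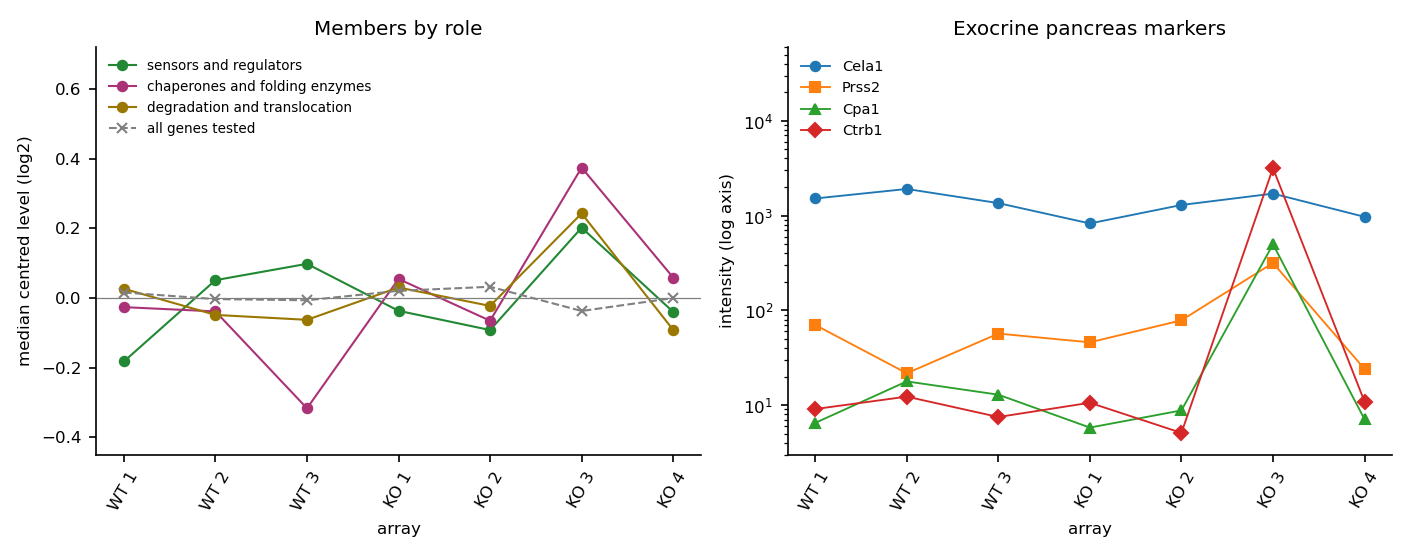
Left, median centred log2 level (y axis) of the genes of each role, and of all genes tested, in each array (x axis, WT wild type, KO knockout). Right, intensity on a log axis of 4 exocrine pancreas markers in the same arrays; KO 3 is highest in all 3 roles and in Ctrb1, Cpa1 and Prss2. Lines only join the points of a series.

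Among degradation genes, Sel1l rose. It encodes the adaptor that ties substrates to the membrane ubiquitin ligase Syvn1 (HRD1). Its brightest probe set, 1436774_at, had intensities of 1943, 2001 and 1730 in wild type 1 to 3 and of 2672, 3720, 3727 and 3968 in knockout 1 to 4. Every knockout lay above every wild type, and knockout 1 was the lowest of them. The mean went from 1891 ± 143 to 3522 ± 578, a log2 fold change of 0.88 ± 0.16 (1.84-fold, limma adjusted p = 0.0177, 95% interval 0.53 to 1.23).

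Sel1l had 5 tested probe sets, and all 5 were higher in knockout. 1425187_at read 1544, 1161 and 1009 in wild type and 2290, 2173, 1973 and 2578 in knockout. 1425188_s_at read 1149, 1018 and 899.3 in wild type against 1523, 2055, 1938 and 2634. 1430692_a_at read 1102, 667.1 and 565.7 against 1717, 1976, 1149 and 2008. In these 3 the groups again did not overlap, and their log2 fold changes were 0.87 ± 0.17, 0.96 ± 0.19 and 1.15 ± 0.26 (limma adjusted p = 0.0245, 0.0245 and 0.0392). The dimmest, 1453559_a_at, overlapped between groups, at 130.1 to 270.8 in wild type and 148.6 to 405.6 in knockout, and did not pass (0.48 ± 0.33, limma adjusted p = 0.432). For Sel1l knockout 3 was not the highest array in any of the 5, and the brightest was at 0.85 without it (limma adjusted p = 0.0276). The brightest did not pass without any single wild type array (0.0551, 0.0578 and 0.106 without wild type 1, 2 and 3) nor without knockout 4 (0.0521), although its log2 fold change stayed between 0.82 and 1.00.

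The partners of Sel1l in the same complex did not pass. Syvn1, the ligase, read 1646, 1908 and 1934 in wild type and 2167, 1998, 2312 and 1791 in knockout, at 0.17 ± 0.14. Os9, a lectin that delivers glycoproteins to the ligase, was at 0.14, and Herpud1, which organises the complex, at 0.12. Derl2 and Derl3, channel proteins of the membrane, were at 0.13 and 0.16. Edem1 and Edem2, which trim mannose from misfolded glycoproteins, were at 0.21 and 0.25, while Edem3, of the same family, was at -0.22, with its second probe set at -0.35. The lowest adjusted p among these brightest probe sets was that of Edem3, at 0.407. Without knockout 3 the value of Os9 was 0.04, of Herpud1 0.06, of Edem1 0.06, of Edem2 0.13 and of Derl3 0.33. Wild type arrays moved some of them as far: Edem2 was at 0.06 without wild type 2 and Derl2 at 0.01 without wild type 1. Whether Sel1l differed from its partners was not tested.

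Vcp, the ATPase that extracts substrates from the membrane, came closest among the other degradation genes. Its brightest probe set read 10091, 10578 and 9603 in wild type and 13226, 10586, 12575 and 12423 in knockout. The groups did not overlap, but knockout 2 exceeded wild type 2 by little. The log2 fold change was 0.27 ± 0.11 (unadjusted p = 0.0285, limma adjusted p = 0.174), and without knockout 3 it was 0.25. Of the translocon genes, which form the channel into the ER, Sec61b was at -0.04, or 0.03 under median scaling and -0.18 without knockout 3, and Sec61a1 at 0.14. Sec61a1 read 6473, 5980 and 5623 in wild type and 5660, 6255, 9808 and 5544 in knockout. Knockout 3 alone lay above the wild types, and without it Sec61a1 was at -0.05.

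Among sensors and regulators, Ppp1r15a (GADD34) fell. It directs a phosphatase to the initiation factor that Eif2ak3 phosphorylates, and so restores translation. Its probe set 1448325_at read 7689, 8591 and 7941 in wild type and 6239, 5170, 6135 and 5897 in knockout. Every knockout was below every wild type. The mean went from 8073 ± 465 to 5860 ± 482, a log2 fold change of -0.46 ± 0.11 (limma adjusted p = 0.0465, 95% interval -0.71 to -0.22). The value was -0.49 without knockout 3 and between -0.50 and -0.40 without any single array. The call was near the threshold and held in 2 of those 7 runs, without knockout 1 or knockout 3, and was lost under median scaling (-0.39, limma adjusted p = 0.155). It was also lost without the intensity filter and with eBayes without trend (limma adjusted p = 0.0897 and 0.103). The same held without probe sets of type s_at, x_at and a_at (0.0566) and with replicate numbers as a block (0.152). It held with other offsets, quantile normalization, a stricter filter and a robust variance model. Ppp1r15b, its constitutively expressed relative, was at 0.13, or 0.07 without knockout 3, and its dimmer probe set at 0.21.

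The sensors themselves did not pass. Ern1 read 316.7, 460.3 and 451.9 in wild type and 485.9, 427.2, 480.1 and 550.6 in knockout, at 0.25 ± 0.18, and its 2 other tested probe sets were at 0.07 and 0.03. Atf6 read 1023, 1013 and 1102 against 904.6, 670.3, 1236 and 928.7, at -0.19 ± 0.19. Its 3 tested probe sets were all lower in knockout, down to -0.40, with overlapping groups. Without knockout 3, its highest array, the brightest was at -0.33 (limma adjusted p = 0.275). Eif2ak3 was at 0.14, or 0.05 without knockout 3. Xbp1 was at 0.18 by its brightest probe set, with 2 others at 0.21 and 0.30 and the dimmest at -0.03.

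Among chaperones, Creld2 and Manf had the largest differences, and neither passed. Creld2, a secreted ER stress-induced protein, read 944.8, 1283 and 814 in wild type and 1629, 1295, 1709 and 1397 in knockout. Manf, an ER-resident partner of Hspa5, read 3533, 3992 and 2827 against 5556, 4627, 5492 and 4333. In both genes every knockout lay above every wild type, with knockout 2 of Creld2 close to wild type 2. The log2 fold changes were 0.58 ± 0.18 and 0.54 ± 0.15 (limma adjusted p = 0.102 and 0.0756), and 0.52 and 0.49 without knockout 3. They were lowest without wild type 3, at 0.44 and 0.40.

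**Figure D3:**
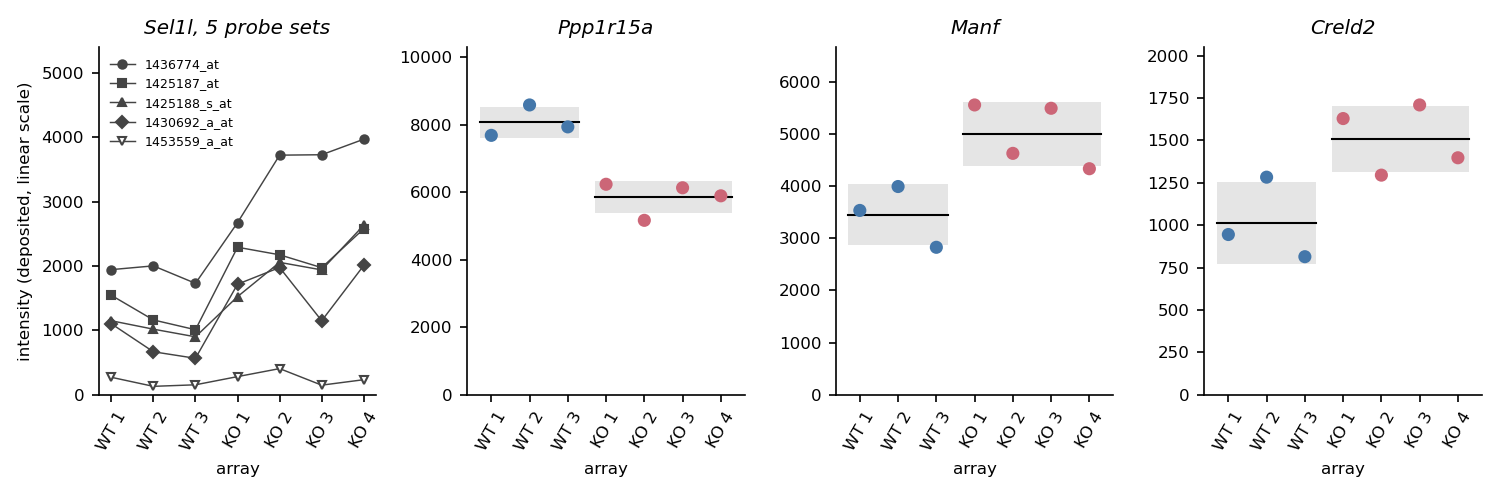
Intensity (y axis, linear scale from 0) in each array (x axis) of Sel1l by 5 probe sets, where filled symbols passed the test and lines only join the points of a probe set, and of Ppp1r15a, Manf and Creld2 by their brightest probe set, with the group mean (line) and SD (grey band). The knockout arrays lie above the wild types in 4 Sel1l probe sets, Manf and Creld2, and below them in Ppp1r15a.

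Hyou1, which exchanges nucleotide on Hspa5, was at 0.35 ± 0.22 by its brightest probe set. It read 1313, 1720 and 1327 in wild type and 1489, 1739, 2815 and 1565 in knockout. In this probe set knockout 3 was the only array well above the others, and without it the value was 0.14. The dimmer 1451913_a_at read 93.5, 65.9 and 109 in wild type and 158.7, 174.1, 197.1 and 104.7 in knockout, at 0.72 ± 0.25 (unadjusted p = 0.0165, limma adjusted p = 0.133) and at 0.61 without knockout 3. There knockouts 1, 2 and 3 lay above every wild type and knockout 4 among them. The other Hyou1 probe set, 1423290_at, was at 0.45, or 0.20 without knockout 3. Hspa5 (BiP), the main chaperone of the ER, went from 16571 ± 1702 to 20166 ± 3422 by its brightest probe set, at 0.27 ± 0.14 (limma adjusted p = 0.284). Its dimmer probe sets 1427464_s_at and 1447824_x_at were at 0.09 and -0.11, so they did not agree on a direction. Of its cochaperones, Dnajb11 was at 0.29, Dnajb9 at 0.11 and Sdf2l1, a partner of such cochaperones, at 0.13. Without wild type 3 the value of Sdf2l1 was -0.19. The disulfide isomerases P4hb, Pdia4 and Pdia6 were at 0.28, 0.30 and 0.19, and Pdia3, the isomerase for glycoproteins, at -0.10. Without knockout 3 the 4 isomerases were at 0.18, 0.12, 0.11 and -0.31, Dnajb11 at 0.17 and Dnajb9 at 0.02. Of the lectin chaperones, Calr was at 0.14, or 0.09 without knockout 3, and Canx at -0.17. Hsp90b1 (GRP94), an ER chaperone of the heat shock protein family, was at -0.11. None of these 12 genes passed, and by brightest probe set P4hb had the lowest limma adjusted p of them, at 0.274.

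Fold changes were also set beside the promoter matches. The 12 genes with at least 1 match had a median log2 fold change of 0.18, with 10 higher, and the 16 without one had 0.14, with 12 higher. Hspa5 and Hsp90b1, whose sites are listed above, were at 0.27 and -0.11.

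Probe sets of a gene often disagreed in sign. Of 21 genes with several tested probe sets, 8 had all of them higher in knockout, 3 all lower, and 10 (47.6%) had both signs. Over the 5074 genes with several tested probe sets, 37.2% had both signs. In size the disagreement was not larger than usual. The median span of log2 fold changes within a gene was 0.223 here, against 0.275 over those 5074 genes. Among 41 pairs of the brightest with another probe set of the same gene, 15 (36.6%) had opposite signs, against 29.1% of 8422 such pairs over all genes. A pair's difference was then tested as the log2 ratio of its probe sets within an array, with limma over all 8422 pairs. None passed, in this set or in all (0%), and 7 of the 41 (17.1%) had an unadjusted p under 0.05, against 17.7% of all pairs. The ratio did not overlap between groups in 8 of the 41 (19.5%), against 17.2%. Both shares of the 41 pairs were near those of all pairs.

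Derl1, another membrane channel protein, showed the smallest p of the 41 pairs. Its brightest probe set, 1437723_s_at, read 1754, 2022 and 1793 in wild type and 1479, 1223, 1714 and 1830 in knockout, a log2 fold change of -0.26. The probe set 1415693_at of the same gene read 1393, 1542 and 1367 against 1606, 1637, 2055 and 1807, at 0.30. Its ratio to the brightest was 0.763 to 0.794 in wild type and 0.988 to 1.34 in knockout, without overlap (difference of log2 fold changes -0.56 ± 0.13, unadjusted p = 0.0014, limma adjusted p = 0.0866). The probe set 1423082_at was higher as well, at 0.25, and 1433563_s_at was lower, at -0.19. The direction of Derl1 thus depended on the probe set, with the 2 of type s_at lower and the 2 others higher.

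Dnajc3 (P58IPK), a cochaperone of Hspa5 that also binds Eif2ak3, had probe sets on both sides of 0. The brightest probe set, 1449372_at, read 2747, 2439 and 2422 in wild type and 3195, 2348, 4081 and 3090 in knockout, at 0.30 ± 0.18, or 0.17 without knockout 3. The dimmest, 1449373_at, read 154.7, 205 and 257.8 against 110.4, 140.8, 136.4 and 112.6, at -0.63 ± 0.21 (unadjusted p = 0.0135, limma adjusted p = 0.121). Every knockout was below every wild type there, while in the brightest 3 knockouts lay above all wild types and knockout 2 below them. The 3 other probe sets were at -0.21, -0.18 and -0.02. The 6 tested Sec61a1 probe sets also ran over both signs, from 1416191_at at 0.48 (unadjusted p = 0.0447) to 1455987_at at -0.03. 1416191_at read 2492, 2177 and 1580 in wild type and 2502, 3291, 3613 and 2227 in knockout, with knockout 4 inside the wild type range.

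Canx and Hsp90b1 had the same kind of disagreement, the brightest probe set lower and another higher in knockout. The ratio of 1422845_at to the brightest in Canx was 0.263 to 0.276 in wild type and 0.324 to 0.369 in knockout. That of 1438040_a_at in Hsp90b1 was 0.622 to 0.679 and 0.733 to 0.888. Neither ratio overlapped between groups (limma adjusted p = 0.212 and 0.224). In Vcp the ratio of the dim 1457588_at to the brightest ran from 0.040 to 0.042 in wild type and from 0.029 to 0.036 in knockout (limma adjusted p = 0.310).

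**Figure D4:**
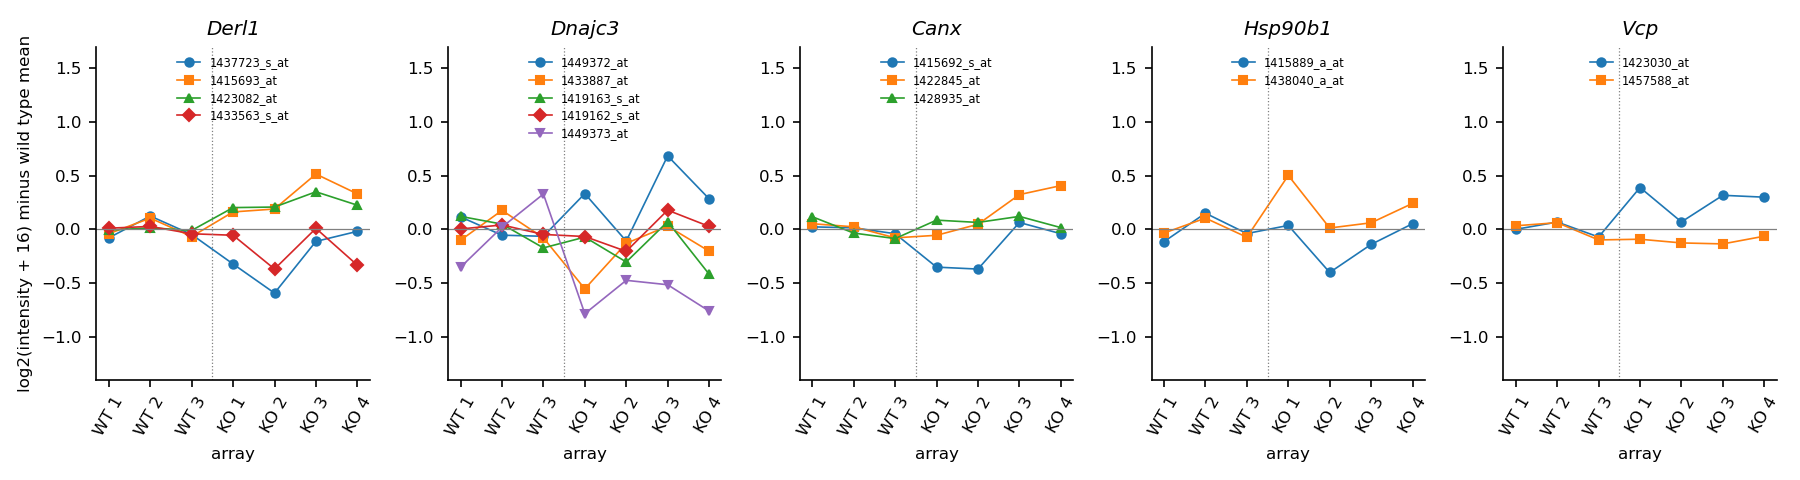
Level of each tested probe set of Derl1, Dnajc3, Canx, Hsp90b1 and Vcp in each array (x axis) as log2(intensity + 16) minus its own wild type mean (y axis). Probe sets of a gene lie on both sides of 0 in the knockout arrays, as in Derl1, where the fold changes run from -0.26 to 0.30; lines only join the points of a probe set.

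Other genes of the pathway, in 4 lists, were read in the same fit. In the ATF4 and CHOP arm, which acts downstream of Eif2ak3 but also of other stress kinases, 9 of 10 tested genes had a lower value in knockout and 1 fell by its brightest probe set, against 4.76% of all genes past the threshold in either direction. The median log2 fold change was -0.49, and 6 of the 10 (60%) had an unadjusted p under 0.05, against 22.5% of all genes. Eif4ebp1, an inhibitor of translation initiation, fell from 4387, 3584 and 4442 in wild type to 2620, 3077, 2625 and 3003 in knockout (-0.54 ± 0.13, limma adjusted p = 0.0484). Dimmer probe sets of Trib3, a pseudokinase, and of Sesn2, a stress-induced inhibitor of growth signalling, passed too. That of Trib3 read 290.6, 340.3 and 404.2 in wild type and 197.6, 141, 177.6 and 155.9 in knockout. That of Sesn2 read 307.5, 341.1 and 393.6 against 185.4, 237.4, 189.6 and 182. In both every knockout lay below every wild type (-0.97 ± 0.19 and -0.76 ± 0.18, limma adjusted p = 0.0245 and 0.0423), while their brightest probe sets, at -1.19 and -0.98, did not (limma adjusted p = 0.0727 and 0.0660). Without knockout 3 all 10 were lower, with a median of -0.55. In that fit 2 of the 10 were past the threshold, against 4.13% of all probe sets. Atf4 itself was at -0.45 (limma adjusted p = 0.149), and Ddit3, which encodes CHOP, was near 0, at -0.10 (limma adjusted p = 0.818). The lean of this list, downward, and that of the chaperones, upward, share the same arrays, and the difference between them was not tested.

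Genes of oxidation and glycan control of folding leaned higher. Of 21 tested, 19 were higher with a median of 0.20, and 1 (Mogs) rose by its brightest probe set, a share like the 4.76% of all genes. At an unadjusted p under 0.05 there were 6 (28.6%), against 22.5% of all genes. Mogs, the glucosidase that starts trimming of glycans, read 1576, 1671 and 1449 in wild type and 2140, 2127, 2414 and 2465 in knockout (0.54 ± 0.13, limma adjusted p = 0.0462). Txndc5, an isomerase of the thioredoxin family, rose by 0.87 ± 0.19 in a dimmer probe set (limma adjusted p = 0.0357), which read 1646, 1271 and 1042 in wild type and 2101, 2497, 2977 and 2071 in knockout, while its brightest was at 0.94 ± 0.25 (0.0656). Uggt1, which senses the folding of glycoproteins, was at 0.53 and did not pass. Without knockout 3, 15 of 21 were higher, the median was 0.24, and Mogs and Txndc5 were not past the threshold by their brightest probe sets.

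In the other 2 lists no gene passed with limma. Of 26 further translocon, signal peptidase and glycosyltransferase genes 16 were higher, with a median of 0.08, and 3 (11.5%) had an unadjusted p under 0.05, against 22.5% of all genes. These were the glycosyltransferase subunit Stt3a at -0.38, the signal peptidase subunit Sec11c at -0.36 and Ssr2, a translocon-associated protein, at 0.30. Of 26 further degradation genes 18 were higher, with a median of 0.12, and 4 (15.4%) had an unadjusted p under 0.05. Of these, Creb3l3, a liver transcription factor cleaved like Atf6, was at 0.68, Aup1 at 0.42 and the ubiquitin ligase Rnf5 at 0.49. Without knockout 3, 14 and 16 of the 26 genes were higher, with medians of 0.03 and 0.06. In that fit 1 of the 26 degradation genes passed, against 4.13% of all probe sets. Under median scaling 20 and 21 were higher, with medians of 0.15 and 0.19. That scaling also raised the median over all tested probe sets, from -0.03 to 0.03, so the shift was not particular to these lists.

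**Figure D5:**
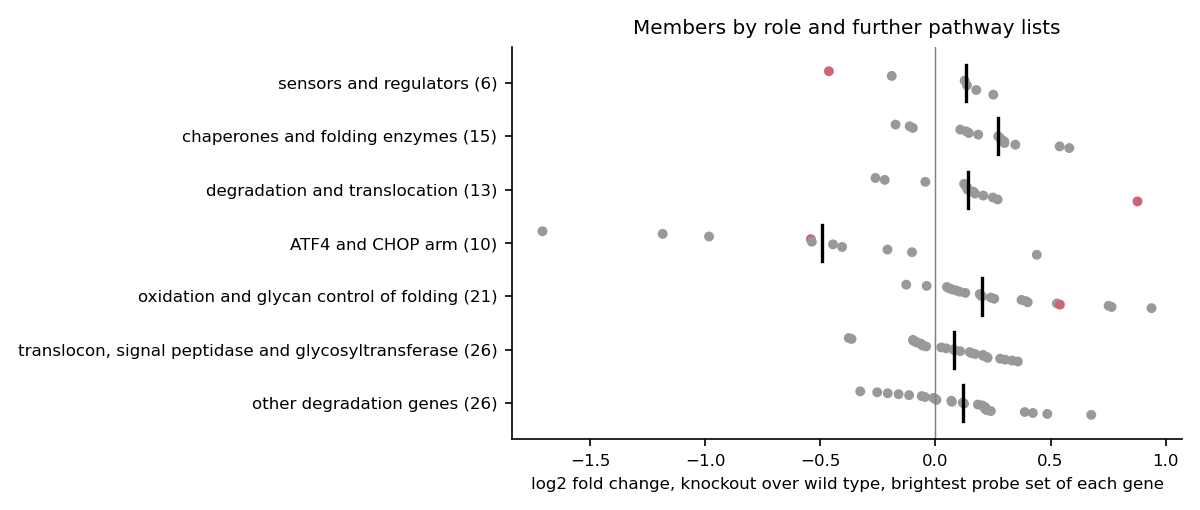
Log2 fold change (x axis) of each gene by its brightest probe set, for the 3 roles and 4 further pathway lists (y axis, with the number of genes tested). Red points passed an adjusted p of 0.05 and black bars are medians, from -0.49 for the ATF4 and CHOP arm to 0.27 for chaperones and folding enzymes.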

How the data were processed

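Each array gave 1 linear intensity per probe set, deposited by the authors. The submitters' processing notes name GCOS and no version. The sources used here do not give how probes were combined. Log2 values were computed here from the deposited intensities. Every array had been scaled to 1 trimmed mean (2% left out at each end), which cannot show a change of total RNA.

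After 64 control probe sets were removed, probe sets whose mean log2(intensity + 16) exceeded the median were tested, 22518 in all, with limma 3.58.1 in R 4.3.3 (lmFit, eBayes with trend, no covariates). The threshold was a Benjamini-Hochberg adjusted p of 0.05 over all of them. The brightest tested probe set stood for a gene. Genes were named from the platform annotation where it gave 1 symbol (34958 probe sets, against 932 with several and 9211 with none). RefSeq promoter windows came from assembly GRCm38.p6.

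The genes, roles and lists were chosen with earlier results of these data known. Values in every array are given for those of the 34 genes with a probe set past the threshold, the 3 largest changes in each role, and genes whose tested probe sets differed in sign with at least 1 at an unadjusted p under 0.05; up to 3 genes of smallest p are named per further list. Genes named outside this rule, and the test of probe set pairs, were chosen after values were seen. The knocked-out gene's own mRNA is not reported here. The fits were tested on simulated data. Alternatives covered the offset, scaling, filter, variance model, each array left out, replicate numbers as a block, probe set type, probe set choice and threshold. Marker lists were erythroid, hepatocyte, neutrophil, macrophage, endothelial, stellate, B lineage, megakaryocyte and exocrine pancreas. Plots were drawn with matplotlib 3.10.9.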

Additional observations from a re-analysis of the deposited data

Results flagged for a closer look

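Dixon's test at the 95% level flagged 5 of the 75 tested probe sets of these genes among the 4 knockout arrays (6.67%); chance flags about 1 in 20. In Edem1 (1424065_at) knockout 3 was the highest, at an intensity of 3129 against 1987 to 2133 in the other knockouts. In Derl1 (1423082_at) knockout 3 was the highest as well, at 1768 against 1595 to 1620. In Herpud1 (1448185_at) knockout 2 was the lowest, at 6203 against 10205 to 10403. In Sel1l (1436774_at) knockout 1 was the lowest, at 2672 against 3720 to 3968, and in Derl2 (1435101_at) knockout 4 was, at 412.3 against 489.6 to 499.3.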

How the results depend on the processing

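The number of genes higher in knockout was 23 to 28 of those tested under all alternatives (24 to 27 when 1 array was left out). No role median moved by more than the SD of its level between arrays of a group. That SD was 0.14 for sensors and regulators, 0.18 for chaperones and folding enzymes and 0.12 for degradation and translocation genes. For sensors and regulators it exceeds the median itself (0.13). Knockout 3 and wild type 3 enter these SDs, so this limit cannot show that the medians are stable. Without 1 array the medians ran from 0.06 to 0.15 for sensors and regulators, from 0.13 to 0.32 for chaperones and folding enzymes and from 0.06 to 0.22 for degradation and translocation genes. Of all 955 probe sets and the 5 of these genes, 473 and 3 passed without the filter, 584 and 3 with eBayes without trend, 611 and 2 without probe sets of type s_at, x_at and a_at, and 2032 and 6 at an adjusted p of 0.10. Leaving out 1 array gave 127 (without wild type 3) to 1006 (without knockout 1) and 0 to 5, with 0 without wild type 2, wild type 3 or knockout 4. Such a fit has fewer samples. With the replicate block, over 6 arrays, 352 and 0 passed, and 375 and 0 over the same arrays without it. Same-numbered arrays deviated from their group means with correlations of 0.09, -0.06 and 0.06. No strong shared shift was thus seen, and whether same-numbered animals share a litter is not known from the labels used here. Without probe sets of those types the brightest remaining one turned Derl1 (0.30), Canx (0.18) and Xbp1 (-0.0305), and the mean over a gene's tested probe sets, an alternative chosen after seeing the data, turned Derl1 (0.0252), Canx (0.0270), Hsp90b1 (0.0466) and Dnajc3 (-0.15). Other directions that reversed were those of Sec61b under median scaling (0.0260) and, without 1 array, Sec61b (-0.18 to 0.11), Sec61a1 (-0.0495 to 0.22), Pdia3 (-0.31 to 0.18), Sdf2l1 (-0.19 to 0.30) and Derl3 (-0.13 to 0.33). The cause was not tested.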

Other observations

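Other marker lists overlapped between groups in their summed level and had no gene past limma's threshold. An unadjusted p under 0.05 was reached by 2 of 6 endothelial markers (33.3%), against 22.5% of all genes. The same held for 1 of 7 macrophage markers and 1 of 7 neutrophil markers (14.3% each). Of 5 tested B lineage and plasma cell markers all 5 were higher in knockout, with a median log2 fold change of 0.45 and sums of 2152 to 3046 in wild type and 2128 to 3956 in knockout. Mzb1, an ER chaperone partner of B and plasma cells, read 387.9, 595.8 and 667.2 in wild type and 866.1, 1040, 448.4 and 805.1 in knockout (0.48, limma adjusted p = 0.356), so knockout 3 was the lowest knockout there, whereas it was the highest for most chaperones. Of 6 endothelial markers 5 were lower (median -0.29), of 6 stellate cell markers 5 were higher (median 0.23), of 7 neutrophil markers 6 were lower (median -0.10), of 7 macrophage markers 4 were lower (median -0.12) and of 5 megakaryocyte markers 4 were lower (median -0.18).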
